A study of Homo sapiens with 12 samples.

Results

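The chromosome 19 zinc finger genes were taken as every gene of the deposited expression table whose symbol has the form ZNF followed by digits and at most 1 letter and whose position lies on chromosome 19, and there were 261 of them among 58302 genes. Their RNA was measured by sequencing in 4 human pancreatic cancer cell lines with 3 replicates each. BxPC-3 and CFPAC-1, both labelled sensitive, are established lines from pancreatic ductal adenocarcinoma, and BxPC-3-GR and CFPAC-1-GR, labelled resistant, were derived from them by growth in rising concentrations of gemcitabine (GEM), a nucleoside drug. BxPC-3-GR is labelled mesenchymal in morphology and the other lines epithelial. Each resistant line is 1 derivative of 1 parental line, so a change within a pair cannot be told apart from differences between cultures kept separately. No source used here says that the replicates were separate cultures, so p values measure the spread between these libraries, which may be technical. Values are FPKM, fragments scaled to gene length and to the number of mapped fragments.

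A zinc finger is a short fold held by a zinc ion that contacts a few bases of DNA, and proteins with many fingers in a row read long sequences. Most human genes of this kind carry a KRAB box near the start of the protein. The KRAB box binds TRIM28, which brings the histone methyltransferase SETDB1, HP1 proteins (CBX1, CBX3, CBX5), the NuRD complex and DNA methyltransferases, and many of the targets are retrotransposons. The genes lie side by side in clusters on chromosome 19 because they arose by repeated local duplication.

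Of the 261 genes, 246 were protein-coding and 15 were pseudogenes in GENCODE release 29. A KRAB box was found in 209 of the coding members and not in 37, by matching at least 50% of a core of the box. The coding members held a median of 12 fingers, with a range from 0 to 36. Median GC content of the longest transcript was 42.1% over all members, 41.8% with a KRAB box and 58.7% without one. The 37 members without the box were of 2 kinds, 13 with a GC content below 50% (median 40.4%) and 24 at or above it (median 62.1%). The base composition of the finger-coding sequence differed in the same way. It held a median of 40.8% G and C in members with the box and 65.6% in the 24 GC-rich members without it, and at the last position of each codon 34.7% and 89.7%.

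The coding sequence of the first finger is shown for the pair of members with the largest increases in CFPAC-1-GR and the pair with the largest decreases, because these pairs differ in base composition while coding for the same fold. Capitals mark G and C. The sequences are from GENCODE transcripts, 5′ to 3′ on the coding strand, and each lies in a coding exon on GRCh38.
ZNF146, chr19:36236492-36236554, plus strand: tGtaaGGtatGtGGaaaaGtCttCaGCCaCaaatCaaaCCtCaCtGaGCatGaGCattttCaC
ZNF888, chr19:52907530-52907592, minus strand: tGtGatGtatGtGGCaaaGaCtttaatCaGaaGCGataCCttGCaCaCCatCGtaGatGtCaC
ZNF581, chr19:55644836-55644898, plus strand: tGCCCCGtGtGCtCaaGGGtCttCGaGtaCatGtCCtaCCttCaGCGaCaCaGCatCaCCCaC
ZNF787, chr19:56088908-56088970, minus strand: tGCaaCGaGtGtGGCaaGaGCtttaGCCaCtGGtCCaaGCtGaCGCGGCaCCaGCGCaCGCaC
G and C made up 41.3% and 42.9% of the 63 bases in ZNF146 and ZNF888, which rose, and 57.1% and 61.9% in ZNF581 and ZNF787, which fell.

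Promoters were less divided than transcripts. For the 215 members with a RefSeq promoter, the 250 bases before the start had a median GC content of 59.6%, compared with 58% over 35116 promoters of the same length. The dinucleotide CG, which reads the same on both strands, was present in 100% of the members' promoters and 93.9% of all. The promoters of the member with the largest increase and of the one with the largest decrease are shown as RefSeq gives them on GRCh38.p14, with CG in capitals.
ZNF146, chr19:36214856-36215105, plus strand: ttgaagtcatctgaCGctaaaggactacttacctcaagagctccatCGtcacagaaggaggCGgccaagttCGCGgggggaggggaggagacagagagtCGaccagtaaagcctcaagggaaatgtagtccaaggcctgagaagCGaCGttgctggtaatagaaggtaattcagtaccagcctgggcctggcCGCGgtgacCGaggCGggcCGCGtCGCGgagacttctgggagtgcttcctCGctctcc
ZNF787, chr19:56121296-56121545, minus strand: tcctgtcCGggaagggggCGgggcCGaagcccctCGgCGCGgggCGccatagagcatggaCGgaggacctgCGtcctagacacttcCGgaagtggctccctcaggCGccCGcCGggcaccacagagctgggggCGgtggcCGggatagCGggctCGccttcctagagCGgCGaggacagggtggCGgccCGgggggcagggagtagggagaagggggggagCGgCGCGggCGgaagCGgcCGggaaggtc
The ZNF146 promoter held 17 CG and 58.4% G and C, and that of ZNF787 held 27 and 74.8%. Both are rich in CG against a median of 11 over all promoters, and the ZNF146 window lies within the gene as the deposited table places it. The transcripts of the 2 genes had GC contents of 41.4% and 70.3%.

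The 3 CFPAC-1 libraries stood apart from the other 9 in base composition. For each library, the deviation of each gene from its mean over the 12 libraries was set against transcript GC content over the 12184 genes whose mean reached 1 FPKM. Spearman's rho across genes, which share the library, was between 0.677 and 0.695 in CFPAC-1 and between -0.467 and -0.314 in the libraries of the other lines. GC-rich genes thus had relatively high values in CFPAC-1 and GC-poor genes low ones. Depth implied by the steps between low values ranged in BxPC-3 from 17400000 to 19900000 fragments, in BxPC-3-GR from 21800000 to 25000000, in CFPAC-1 from 12800000 to 19500000, and in CFPAC-1-GR from 15800000 to 22100000. In the shallowest library, 0.1 FPKM stood for about 6.26 fragments of a member of median length. The epithelial markers EPCAM, CDH1, KRT7, KRT8, KRT18 and KRT19 were present in every library, at a summed FPKM between 838 and 1012 in the BxPC-3 pair, between 2636 and 2914 in CFPAC-1 and between 1156 and 1347 in CFPAC-1-GR. Of 5 markers of other cells, PTPRC was listed at 0 throughout, COL1A2, PECAM1 and PDGFRB stayed at 0.779 FPKM or less and COL1A1 reached 3.32 FPKM, and their sum rose from between 1.89 and 2.48 in CFPAC-1 to between 3.27 and 4.08 in CFPAC-1-GR.

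Most members were transcribed at low levels. The median member had between 0.537 and 0.598 FPKM in the BxPC-3 libraries, between 0.530 and 0.584 in BxPC-3-GR and between 0.111 and 0.114 in CFPAC-1. In CFPAC-1-GR it had between 0.424 and 0.523 FPKM. The number of members at 1 FPKM or more was 92 to 102 per library in BxPC-3, 90 to 95 in BxPC-3-GR, 29 in each CFPAC-1 library and 61 to 68 in CFPAC-1-GR. Each CFPAC-1 library therefore held fewer abundant members than any other library. In these bulk libraries, fewer cells that transcribe a gene and less RNA per cell cannot be told apart. There were 10 members listed at 0 in all 12 libraries, and 14 reached 1 FPKM in every one.

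Summed over the KRAB members, FPKM was 202 ± 3.95 (SD, n = 3) in BxPC-3, 192 ± 6.20 in BxPC-3-GR, 41.6 ± 1.01 in CFPAC-1 and 134 ± 12.3 in CFPAC-1-GR. Summed over the members without the box, it was 119 ± 1.43, 96.5 ± 0.389, 134 ± 4.68 and 76.6 ± 1.28 in the same order. The KRAB sum was thus lowest in CFPAC-1, while the sum without the box was highest there, and these sums are dominated by the abundant members.

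**Figure D1:**
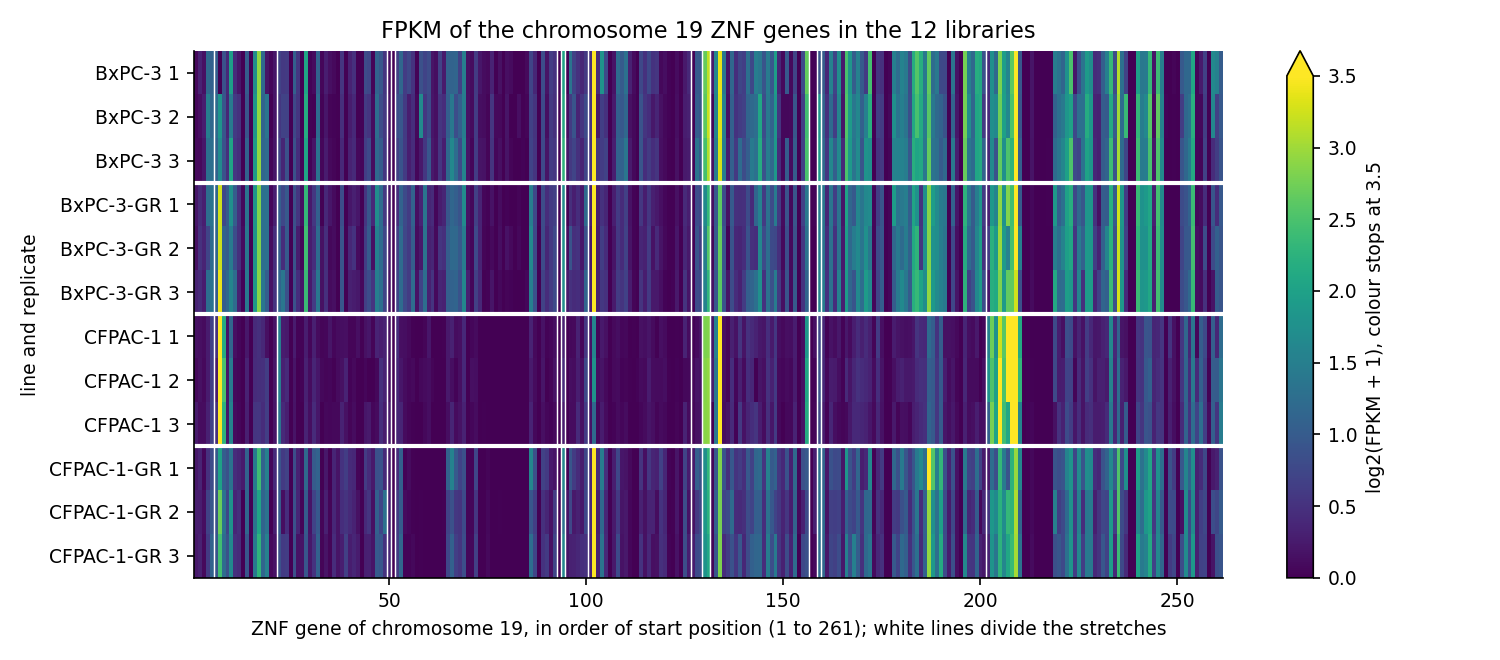
FPKM of the 261 members, on the log2(FPKM + 1) scale, in each of the 12 libraries (vertical axis), with members in order of their start along chromosome 19 (horizontal axis) and white lines between the 17 stretches. The 3 CFPAC-1 libraries are dark over most members and bright at a few GC-rich genes, and a run of members within the stretch from ZNF101 to ZNF254 is dark in both CFPAC-1 and CFPAC-1-GR.

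The members with the highest mean over the 12 libraries were ZNF787, ZNF146, ZNF428, ZNF358 and ZNF581, all without a KRAB box. ZNF787 (GC content 70.3%) had 15.5, 14.9 and 13.7 FPKM in BxPC-3 and 11.0, 11.6 and 8.495 in BxPC-3-GR. In the other pair ZNF787 had 24.8, 22.9 and 25.7 FPKM in CFPAC-1 and 6.80, 7.42 and 7.17 in CFPAC-1-GR. ZNF428 (GC content 61.3%) had 9.42, 9.07 and 8.73 FPKM in BxPC-3 and 5.19, 5.41 and 5.14 in BxPC-3-GR. In the other pair ZNF428 had 14.1, 12.8 and 12.2 FPKM in CFPAC-1 and 6.13, 5.88 and 6.08 in CFPAC-1-GR. For both genes, every resistant library lay below every library of its parental line, and in neither pair was ZNF428 past the fold threshold used below.

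The first comparison asked which members changed between each GEM-resistant line and its parental line. Genes were tested with limma on log2(FPKM + 1) when their mean over the 6 libraries was at least 1 FPKM, and a gene was called when the Benjamini-Hochberg adjusted p was below 0.05 and log2FC was above 1 or below -1. Adding 1 FPKM before taking logs understates the change of low genes. With 3 libraries against 3, an exact permutation test of 1 gene cannot give a p below 0.10, so each adjusted p rests on the variance limma pools over genes.

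BxPC-3-GR differed little from BxPC-3 in these genes. Of the 261 members, 100 passed the filter, and 1 was called higher (background of all tested genes, 4.14%) and 3 lower (3.62%). The called members were ZNF358, which was higher, and ZNF296, ZNF146 and ZNF574, which were lower, and none has a KRAB box. The median log2FC of the 100 was -0.03, beside -0.05 over all 11710 tested genes. With the minimum lowered to 0.1 FPKM, 197 members were tested, and at an adjusted p below 0.05 by limma, 42 were higher (background 20.5%) and 34 lower (23%), shares of 21.3% and 17.3%.

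ZNF146 (ENSG00000167635, chr19:36214602-36238774, plus strand) codes for a protein made up almost wholly of zinc fingers, known as OZF, and its overexpression in pancreatic carcinoma is on record. It had 26.4, 24.97 and 25.4 FPKM in BxPC-3 and 11.1, 10.4 and 11.2 in BxPC-3-GR. It fell by 1.16 on the log2 scale (SE 0.05, limma adjusted p = 2.1e-05), without overlap of the groups. In CFPAC-1 it had 2.04, 2.49 and 1.30 FPKM and in CFPAC-1-GR 14.1, 11.6 and 12.6, a log2FC of 2.24 (SE 0.16, limma adjusted p = 1.8e-05). ZNF146 thus changed in opposite directions in the 2 pairs, and the means of the resistant lines were 10.9 ± 0.461 and 12.8 ± 1.27 FPKM (SD, n = 3). Of its transcript windows, 6.79% also occur in ZNF565.

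ZNF358 (ENSG00000198816, chr19:7515292-7521026, plus strand) also moved in opposite directions. It was listed at 0, 2.53 and 2.24 FPKM in the 3 BxPC-3 libraries and had 8.49, 8.37 and 9.58 in BxPC-3-GR, a log2FC of 2.12 (SE 0.48, limma adjusted p = 0.00969). The groups did not overlap, but the spread in BxPC-3 came from 1 library at 0, and without that library the log2FC was 1.53 and the call stood. With a pseudocount of 0.1 the gene was no longer called (log2FC 3.39, adjusted p = 0.0655 by limma). In CFPAC-1 it had 18.0, 10.46 and 14.2 FPKM and in CFPAC-1-GR 3.03, 5.58 and 4.45, a log2FC of -1.50 (SE 0.24, limma adjusted p = 0.000834). Of its transcript windows, 23.0% also occur in AC008878.1 or AC008878.4, so its values are uncertain.

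ZNF296 and ZNF574 were lower in both resistant lines. ZNF296 (ENSG00000170684, chr19:45071500-45076588, minus strand) had 5.35, 4.44 and 4.63 FPKM in BxPC-3 and 1.68, 1.51 and 1.19 in BxPC-3-GR, and 2.63, 3.25 and 3.43 in CFPAC-1 and 0.966, 0.743 and 0.818 in CFPAC-1-GR. It fell by 1.24 (SE 0.10, limma adjusted p = 0.000136) and by 1.15 (SE 0.10, limma adjusted p = 3.8e-05) on the log2 scale. ZNF574 (ENSG00000105732, chr19:42068477-42081549, plus strand) had 5.40, 5.16 and 4.55 FPKM in BxPC-3 and 2.17, 1.83 and 1.94 in BxPC-3-GR, and 6.02, 6.31 and 6.32 in CFPAC-1 and 2.32, 2.61 and 2.47 in CFPAC-1-GR. It fell by 1.02 in the first pair (limma adjusted p = 0.000111) and by 1.06 in the second (limma adjusted p = 1.1e-05) on the log2 scale. For both genes the groups did not overlap in either pair. The ZNF574 decrease in BxPC-3-GR lay at the fold threshold and was lost without BxPC-3 replicate 1 (log2FC -0.97) or without BxPC-3-GR replicate 2 (-0.98), and under both other scalings (-0.98 by either). Their transcripts are rich in G and C (68.1% and 60.9%), and after the GC and length correction described below they were called in BxPC-3-GR (log2FC -1.34 and -1.06) and not in CFPAC-1-GR (-0.06 and -0.32).

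**Figure D2:**
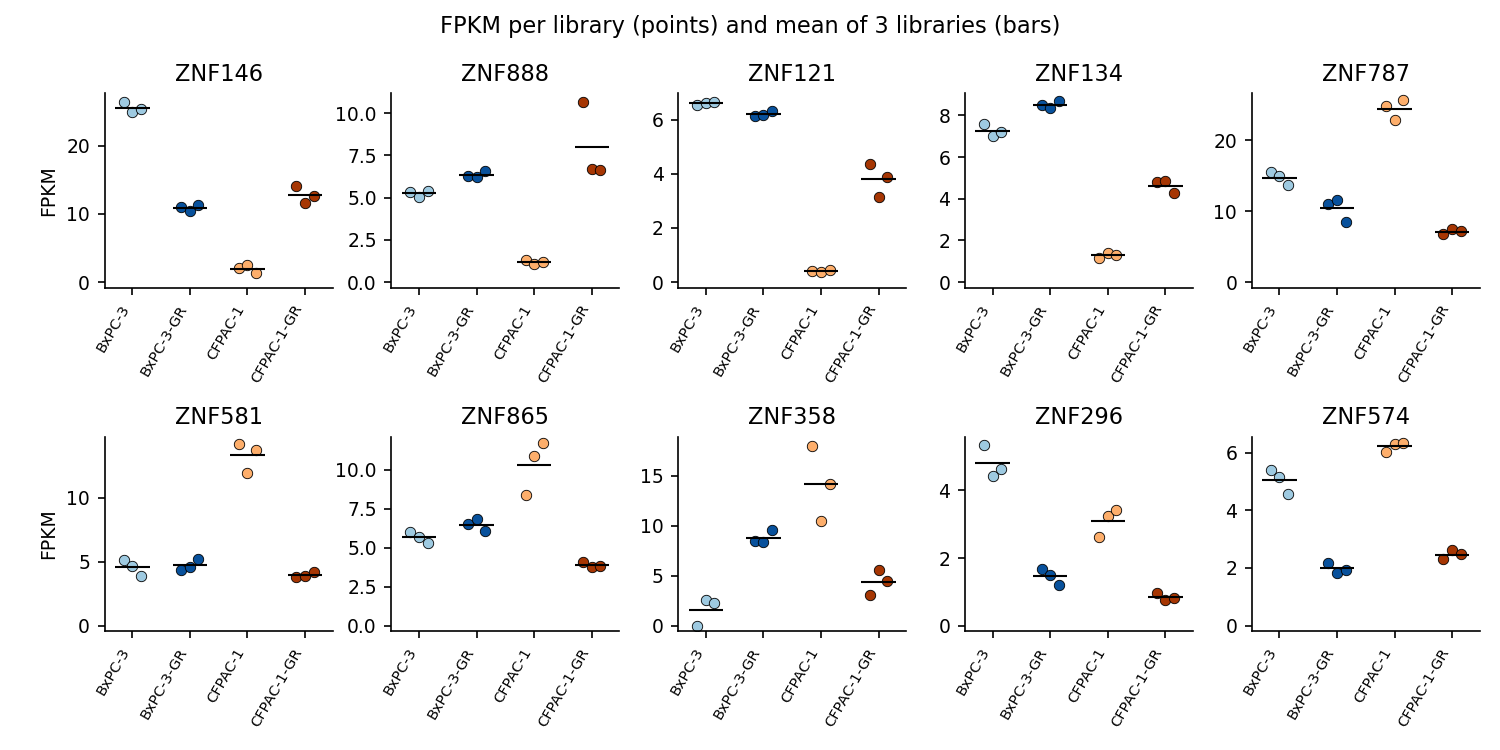
FPKM of 10 members in the 3 libraries of each line (points) with their mean (bars), each panel with its own linear axis from 0. ZNF146, ZNF888, ZNF121 and ZNF134 were lowest in CFPAC-1, whereas ZNF787, ZNF581, ZNF865, ZNF358 and ZNF574 were highest there.

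CFPAC-1-GR differed from CFPAC-1 in both directions, and among the members that passed the filter the direction went with base composition. Of 261 members, 45 passed the filter, and 15 were called higher (background 20.5%) and 9 lower (11.7%). All 15 that rose had a transcript GC content of at most 45.8%, and all 9 that fell had at least 59.6%. Without CFPAC-1-GR replicate 1, 34 members passed the filter, 10 were called higher and 9 lower, and the median log2FC was -0.41 in place of 0.52. Over the 45, every log2FC was above 0 up to a GC content of 51.4% (27 members) and below 0 from 51.6% upwards (18 members). Spearman's rho between log2FC and GC content was -0.91 across these 45 members and -0.78 across all 12030 tested genes with a GC content, which share the same 6 libraries. With the minimum lowered to 0.1 FPKM, rho was -0.44 across 185 members, -0.17 across the 151 with a KRAB box, -0.78 across the 29 without one and -0.68 across 20920 genes. At the minimum of 1 FPKM, rho was -0.72 across the 20 tested members with the box and -0.77 across the 23 without one. The relation was thus weaker over the larger set of members, and weak among those with the box only at the lower minimum. There, adding 1 FPKM understates the change of the low members. In the BxPC-3 pair rho was 0.09 across 100 members and 0.04 across 11685 genes.

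The KRAB box did not draw the same line. The 15 members that rose comprised 9 with the box, 4 coding members without it and 2 pseudogenes, ZNF702P and ZNF321P. The 9 that fell were all members without the box. Of the 23 tested members without it, the 5 with a GC content below 50% had log2FC above 0 and 4 were called higher, and the 18 above that border had log2FC below 0 and 9 were called lower. All 20 tested KRAB members had log2FC above 0, with GC contents up to 51.4%. At the minimum of 0.1 FPKM no single GC border divided the members. Of the 7 KRAB members tested there with a GC content of 50% or more, 5 had log2FC above 0, with a range from -0.64 to 0.52. All 20 GC-rich members without the box had log2FC below 0. The median GC content was 51.3% over the 10 KRAB members at 50% or more and 62.1% over the 24 without the box. The direction was therefore not compared at equal GC content. Of the 151 KRAB members tested at the minimum of 0.1 FPKM, 148 had log2FC above 0, beside 60.5% of all 21003 tested genes. After the GC and length correction described below, 55 of the 151 did, beside 49.1% of all genes.

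The largest increases were those of ZNF146, ZNF888, ZNF121, ZNF134, ZNF776 and ZNF614. ZNF888, a KRAB member, had 1.33, 1.08 and 1.18 FPKM in CFPAC-1 and 10.7, 6.71 and 6.64 in CFPAC-1-GR (log2FC 2.01, SE 0.17, limma adjusted p = 3.9e-05). CFPAC-1-GR replicate 1 was the highest of the 3, and all 3 lay above CFPAC-1. ZNF121, without a KRAB box, had 0.395, 0.382 and 0.462 FPKM in CFPAC-1 and 4.36, 3.16 and 3.87 in CFPAC-1-GR (log2FC 1.76, SE 0.10, limma adjusted p = 9.5e-06). ZNF134 had 1.17, 1.41 and 1.31 FPKM in CFPAC-1 and 4.78, 4.86 and 4.25 in CFPAC-1-GR, a log2FC of 1.29. In BxPC-3 these 3 genes had been at 5.26 ± 0.190, 6.61 ± 0.0511 and 7.26 ± 0.302 FPKM (SD, n = 3), above CFPAC-1 in each case. ZNF776 (log2FC 1.26) and ZNF614 (1.24), both with the box, were at 0.660 FPKM or less in every CFPAC-1 library. ZNF614 fell below the filter without any 1 of the 3 CFPAC-1-GR libraries, so its place in the test rests on the line where it was high. Among the 15 called higher, ZNF845, ZNF772 and ZNF507 also left the test without some of these libraries, and ZNF321P lost its call without CFPAC-1-GR replicate 1. Only 3 of the 15 reached 1 FPKM in every CFPAC-1 library, while all 15 did in every CFPAC-1-GR library. Their median was 0.53 FPKM in CFPAC-1 and 2.67 in CFPAC-1-GR, so most passed the filter through the line where they were high.

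The largest decreases were those of ZNF787, ZNF581, ZNF358, ZNF865, ZNF296 and ZNF414. The values of ZNF787 given above correspond to a log2FC of -1.65 (SE 0.07, limma adjusted p = 6.3e-06). ZNF581 had 14.3, 11.98 and 13.8 FPKM in CFPAC-1 and 3.82, 3.85 and 4.17 in CFPAC-1-GR (log2FC -1.53, SE 0.08, limma adjusted p = 8e-06), and 12.7% of its transcript windows are shared with the neighbouring ZNF580. ZNF865 had 8.38, 10.9 and 11.7 FPKM in CFPAC-1 and 4.09, 3.73 and 3.81 in CFPAC-1-GR, a log2FC of -1.20. The groups of these 3 genes did not overlap in this pair. ZNF414 had 3.49, 4.62 and 3.81 FPKM in CFPAC-1 and 1.07, 1.52 and 1.37 in CFPAC-1-GR, a log2FC of -1.10. The ZNF579 decrease, with a log2FC of -1.03, was lost without CFPAC-1-GR replicate 1 (-0.84) or CFPAC-1 replicate 3 (-0.98), and ZNF628 left the test without CFPAC-1 replicate 1 or 2.

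**Figure D3:**
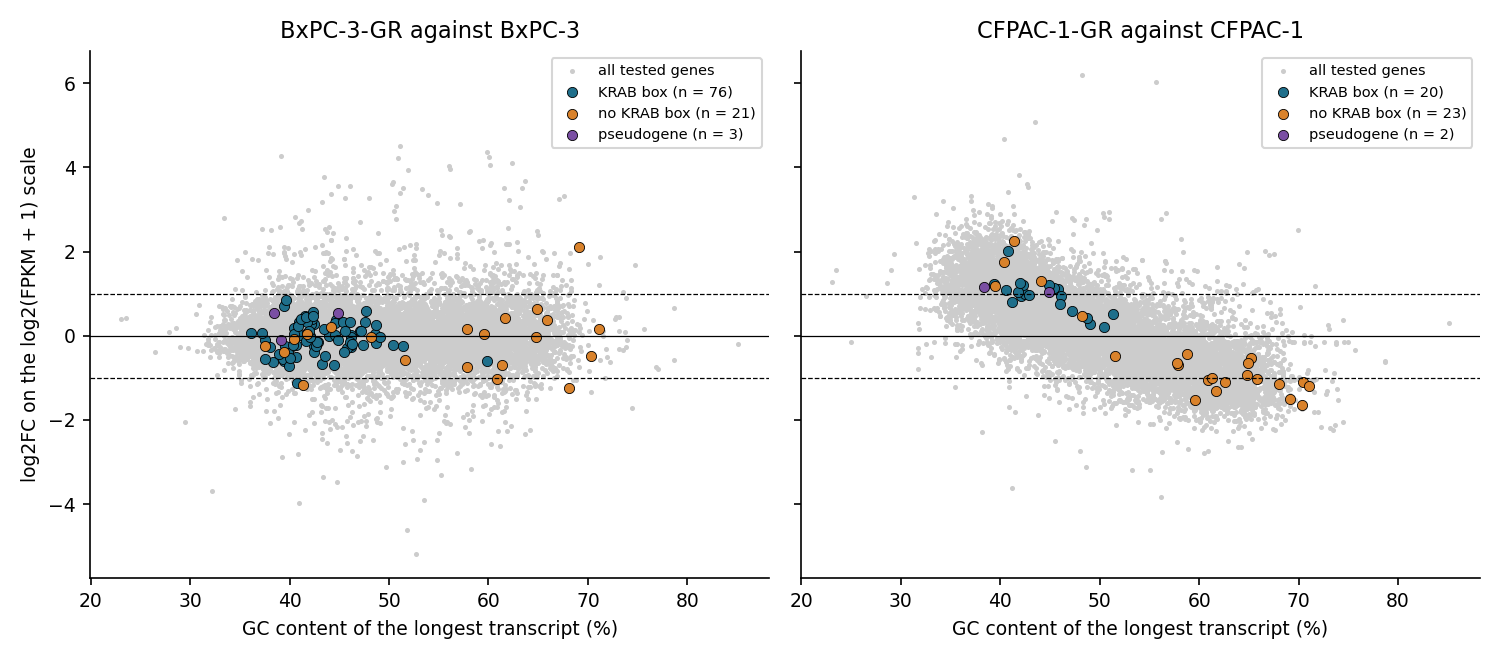
log2FC on the log2(FPKM + 1) scale against transcript GC content for all tested genes (grey) and for the tested members with a KRAB box, without one and pseudogenes (colours), in the BxPC-3 pair (100 members) and the CFPAC-1 pair (45 members). Dashed lines mark a log2FC of -1 and 1. In the CFPAC-1 pair the members lie along the falling band formed by all genes, and in the BxPC-3 pair no such band is seen.

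A gene that passed the filter only through the line where it was high had to differ, and 216 members were left out of the CFPAC-1 test. The order of the libraries needs no filter. Among the 237 members with a value above 0 in any library of the pair, every CFPAC-1-GR library lay above every CFPAC-1 library in 159, or 67.1% (background 34.6%), and below in 23, or 9.70% (18.8%). Members with the KRAB box contributed 144 of the former and 5 of the latter. Of the 24 GC-rich members without the box, 0 lay above and 17 below, and of the 13 GC-poor ones, 10 lay above and 0 below. In the BxPC-3 pair, 60 of 245 members, or 24.5%, lay above (background 20.1%) and 55, or 22.4%, below (23%), close to the background.

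With the minimum lowered to 0.1 FPKM, 185 members were tested in the CFPAC-1 pair. At an adjusted p below 0.05 by limma, 129 were higher (background 39.9%) and 19 lower (23.2%), and the median log2FC was 0.44 beside 0.16 over all 21003 tested genes. The median of all genes itself moved by -0.24 under median-of-ratios scaling. At the minimum of 1 FPKM, 9 of 45 members were then called higher in place of 15 (background 14.5% in place of 20.5%). Lower were 12 in place of 9 (background 18.96% in place of 11.7%). The shares of members called higher and lower were then 20% and 26.7%. Both shares moved in the same direction as those of all genes.

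Because the trend with GC content ran through all genes of the CFPAC-1 pair, the log ratios were also corrected with a spline on GC content and length fitted over all tested genes. After it, 2 of the 45 members were called higher (background 4.68%) and 0 lower (3.97%) by limma. At an adjusted p below 0.05 without the fold criterion, 14 were higher (background 29.6%) and 5 lower (30.6%), shares of 31.1% and 11.1%. At an unadjusted p below 0.05, 18 were higher (31.9%) and 5 lower (32.9%). The share that was higher lay near that of all genes, and the share that was lower lay below it. The median log2FC fell from 0.52 to 0.06. The called members were ZNF146 (log2FC 1.30, limma adjusted p = 0.000535) and ZNF888 (1.004, adjusted p = 0.00159), the second at the fold threshold itself. ZNF121 was left at 0.58 and ZNF134 at 0.58, and among the decreases ZNF787 was left at -0.72 and ZNF581 at -0.64.

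At the lower minimum, the corrected values of the 185 members had a median of -0.14. At an adjusted p below 0.05 by limma, 30 were then higher (background 29.4%) and 76 lower (30.2%), shares of 16.2% and 41.1%. With a pseudocount of 0.1 as well, the corrected median was 0.24. The sign of the members' shared change in CFPAC-1-GR after the correction therefore depended on the pseudocount and the filter, whereas ZNF146 was called higher under each of these settings. The correction removes the trend with GC content over all tested genes, whatever its source, and its source was not tested. Among the members a relation with GC content remained. After the correction rho was -0.41 across the 45 members, beside -0.03 across all 12030 genes. At the lower minimum it was 0.55 across the 151 with a KRAB box and -0.59 across the 29 without one, beside 0.03 across 20920 genes. The corrected medians of the members are therefore not free of GC content.

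**Figure D4:**
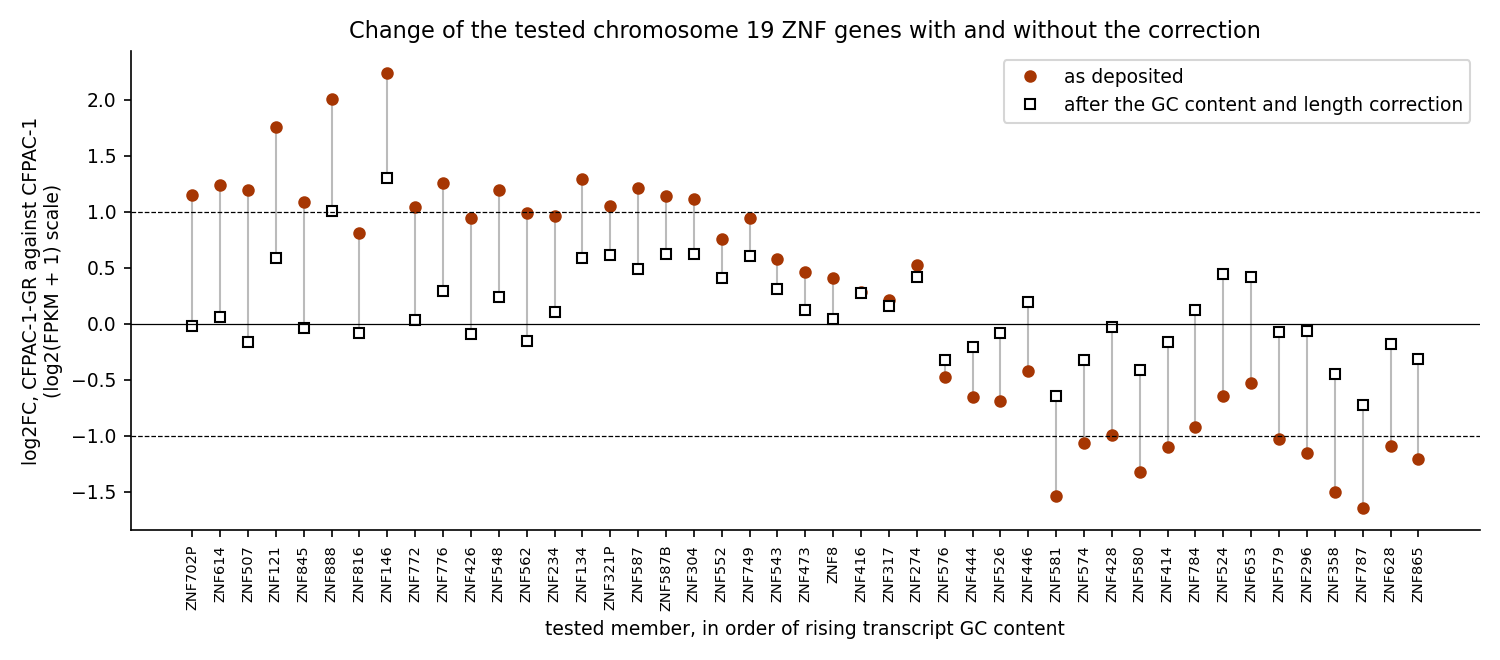
log2FC in CFPAC-1-GR against CFPAC-1 for the 45 tested members as deposited (filled circles) and after the GC content and length correction (open squares), in order of rising transcript GC content, with a grey line joining the 2 values of a member. As deposited, the first 27 members lie above 0 and the last 18 below, and after the correction 2 squares lie above the dashed line at 1 and none below that at -1.

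The second comparison asked whether members responded differently in the 2 pairs, by the interaction term over all 12 libraries, signed as the CFPAC-1-GR change minus the BxPC-3-GR change. Of 75 members tested, 22 were called above 0 (background 23.6%) and 7 below (14.4%). ZNF146 had the largest positive difference (3.41, SE 0.18, limma adjusted p = 3.8e-08) and ZNF358 the largest negative one (-3.62, SE 0.58, limma adjusted p = 0.000161). After the correction, 3 were called above 0 (background 9.31%) and 2 below (9.10%). Those above were ZNF146 (2.45), ZNF296 (1.30) and ZNF587B (1.01), and those below were ZNF358 (-2.42) and ZNF264 (-1.09). ZNF587B and ZNF264 were singled out after their values were seen. Without the BxPC-3 library that listed ZNF358 at 0, its uncorrected difference was -3.04.

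Along the chromosome, the members fell into 17 stretches when a new stretch began wherever the next member started more than 1 Mb after the previous ones ended. The largest ran from ZNF628 to ZNF446 (60 members, chr19:55476332-58481230), from ZNF175 to ZNF331 (42 members, chr19:51571298-53580269) and from ZNF101 to ZNF254 (41 members, chr19:19668796-24129961). At the minimum of 0.1 FPKM, the median log2FC in CFPAC-1-GR was between 0.19 and 0.62 in the 8 stretches with at least 5 tested members, and in BxPC-3-GR it was between -0.24 and 0.22 in 9 stretches. With a border of 0.5 Mb in place of 1 Mb, which gave 21 stretches, the lowest of 9 medians in CFPAC-1-GR was -1.09, while with 2 Mb the medians of 5 stretches were between 0.27 and 0.54. After the correction the CFPAC-1-GR medians were between -0.49 and 0.05. At the minimum of 1 FPKM, 5 of the 6 tested members from ZNF175 to ZNF331 were called higher in CFPAC-1-GR (background 20.5%). Of the 23 tested from ZNF628 to ZNF446, 7 were called higher and 5 lower (background 11.7%). In that stretch GC-rich genes such as ZNF628, ZNF579, ZNF865, ZNF581 and ZNF787 lie among GC-poor ones. After the correction 1 was called higher in the first of these stretches and 0 in the second, and 0 lower in either.

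The stretch from ZNF101 to ZNF254 held members that were detected in the BxPC-3 pair and below 0.1 FPKM in the CFPAC-1 pair. It lies near the centromere, and its members had a median GC content of 37.6%. In BxPC-3, 10 of its 41 members were below 0.1 FPKM in every library, compared with 30 in CFPAC-1 and 27 in CFPAC-1-GR. Over all 261 members these counts were 60, 98 and 63. The shares of all genes with these patterns are not given here, so whether the stretch is unusual was not tested. Within the stretch, 25 members were below 0.1 FPKM in all 6 libraries of the CFPAC-1 pair, and 11 of these were at 0.1 FPKM or more in every BxPC-3 library. They were ZNF506, ZNF253, ZNF93, ZNF90, ZNF486, ZNF737, ZNF66, ZNF85, ZNF493, ZNF676 and ZNF492, named after their values were seen.

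ZNF486 had 0.635, 0.481 and 0.485 FPKM in BxPC-3, 1.56, 1.55 and 1.40 in BxPC-3-GR and 0.0355, 0.0729 and 0.0538 in CFPAC-1, and it was listed at 0 in the 3 CFPAC-1-GR libraries. ZNF66 had 0.616, 0.452 and 0.465 FPKM in BxPC-3 and 0.206, 0.453 and 0.283 in BxPC-3-GR and was listed at 0 in all 6 libraries of the CFPAC-1 pair. In CFPAC-1-GR, 3 fragments in the shallowest library would have been 0.0446 FPKM for ZNF486 and 0.0631 for ZNF66, counting error only. Both genes lay above that in all 6 libraries of the BxPC-3 pair.

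Other members of the same stretch, with GC contents as low, had higher values in CFPAC-1-GR than in CFPAC-1. ZNF91, which silences SVA elements, had 0.0643, 0.0766 and 0.0576 FPKM in CFPAC-1, 0.823, 0.574 and 0.654 in CFPAC-1-GR, 0.298, 0.446 and 0.449 in BxPC-3 and 0.702, 0.697 and 0.844 in BxPC-3-GR. At the minimum of 0.1 FPKM its log2FC was 0.66 (limma adjusted p = 0.000277) in CFPAC-1-GR and 0.32 (0.0106) in BxPC-3-GR, without overlap of the groups in either pair. After the correction these values were -0.40 and 0.32. ZNF93, which silences LINE-1 elements, had 0.427, 0.378 and 0.367 FPKM in BxPC-3 and 1.15, 1.053 and 1.37 in BxPC-3-GR, a log2FC of 0.66 at the same minimum (limma adjusted p = 0.000626), and it stayed at 0.0608 FPKM or less in every library of the CFPAC-1 pair. As deposited, ZNF91 thus lay higher in both resistant lines, and ZNF93 in BxPC-3-GR. After the correction, with a pseudocount of 1, the change of ZNF91 in CFPAC-1-GR was below 0. At this minimum the corrected median of the members in CFPAC-1-GR was -0.14 with that pseudocount and 0.24 with a pseudocount of 0.1. The corrected sign at such low values therefore depends on the setting, and the value of ZNF91 with a pseudocount of 0.1 is not given here. The transcripts of the 2 genes have GC contents of 37.0% and 40.3%.

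Between the parental lines, 5 members were below 0.1 FPKM in every CFPAC-1 library and at 1 FPKM or more in every BxPC-3 library, ZNF813, ZNF525, ZNF283, ZNF790 and ZNF567, and 0 showed the opposite. All have a KRAB box and GC contents between 38.2% and 40.4%. ZNF283 had 1.65, 1.90 and 1.83 FPKM in BxPC-3, 0.0931, 0.0956 and 0.0862 in CFPAC-1 and 0.875, 0.663 and 0.362 in CFPAC-1-GR. ZNF813 had 3.31, 3.40 and 3.39 FPKM in BxPC-3 and was listed at 0, 0 and 0.0906 in CFPAC-1 and 0.619, 0.0594 and 0.252 in CFPAC-1-GR, where it overlapped CFPAC-1. The other 4 lay in CFPAC-1-GR above every CFPAC-1 library. These genes were chosen for this pattern, so no test is given.

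Members with a described role in cells were read from a fixed list. ZNF274, which brings SETDB1 to the 3′ ends of zinc finger genes themselves, had 1.26, 1.24 and 1.25 FPKM in BxPC-3 and 0.862, 0.931 and 0.930 in BxPC-3-GR. In the other pair ZNF274 had 1.22, 1.20 and 1.17 FPKM in CFPAC-1 and 1.98, 2.29 and 2.22 in CFPAC-1-GR. Its log2FC was -0.24 (limma adjusted p = 0.00494) in the first pair and 0.52 (adjusted p = 0.000286) in the second, under the fold threshold in both, and the groups did not overlap. After the correction the CFPAC-1-GR value was 0.42.

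ZNF304, a repressor reported to act at the INK4-ARF locus, had 0.719, 0.621 and 0.550 FPKM in CFPAC-1 and 2.53, 2.49 and 2.54 in CFPAC-1-GR and was called higher (log2FC 1.11, limma adjusted p = 1e-05), with 0.63 after the correction, no longer called. ZNF350, a partner of BRCA1 also known as ZBRK1, had 2.30, 2.05 and 2.19 FPKM in BxPC-3 and 1.55, 1.55 and 1.93 in BxPC-3-GR. In the other pair ZNF350 had 0.166, 0.0991 and 0.0557 FPKM in CFPAC-1 and 0.745, 0.595 and 0.782 in CFPAC-1-GR. The CFPAC-1-GR libraries lay above CFPAC-1, and the BxPC-3-GR libraries below BxPC-3. ZNF224, a repressor of the aldolase A gene, had 0.165, 0.146 and 0.212 FPKM in CFPAC-1 and 1.30, 1.08 and 1.25 in CFPAC-1-GR, and 47.6% of its transcript windows occur in another gene.

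ZNF675, an inhibitor of TRAF6 signalling, had 0.123, 0.150 and 0.101 FPKM in CFPAC-1 and 0.608, 0.396 and 0.430 in CFPAC-1-GR, and all 3 values were above those of CFPAC-1. ZNF331, an imprinted gene, had 0.0471, 0.0952 and 0.107 FPKM in CFPAC-1 and 0.189, 0.327 and 0.166 in CFPAC-1-GR, again without overlap. In the BxPC-3 pair the groups overlapped for both genes. ZNF671 was listed at 0 in all 12 libraries and ZNF382 stayed at 0.0112 FPKM or less, so neither could be compared. Both are known as candidate tumor suppressors that are methylated in several cancers.

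Genes for the corepressors of KRAB members and for other chromatin proteins were read from a list of 29, so counts over it are not counts of KRAB partners alone. In BxPC-3-GR, 27 were tested and 0 were called by limma, with 7 higher (background 26.2%) and 9 lower (31.5%) at an adjusted p below 0.05 alone. At an unadjusted p the counts were the same (background 28.3% and 34.3%). In CFPAC-1-GR, 26 were tested, and 8 were called higher (30.8%, background 20.5%) and 2 lower (7.69%, background 11.7%). After the correction 0 were called in either direction by limma. At an adjusted p below 0.05 alone 6 were then higher and 6 lower, 23.1% each beside 29.6% and 30.6% of all genes, and at an unadjusted p 8 were higher and 7 lower. TRIM28, the corepressor that the KRAB box binds, had 78.3, 75.3 and 65.9 FPKM in BxPC-3 and 41.4, 42.5 and 40.9 in BxPC-3-GR. In the other pair TRIM28 had 93.8, 89.95 and 97.8 FPKM in CFPAC-1 and 34.5, 37.8 and 34.5 in CFPAC-1-GR. It fell by 0.80 (limma adjusted p = 0.000272) and 1.37 (adjusted p = 7.3e-06) on the log2 scale, the second a call, and after the correction by 0.86 and 0.50. SETDB1 had a log2FC of 0.07 (adjusted p = 0.492 by limma) and 0.10 (adjusted p = 0.287), below both thresholds. The HP1 gene CBX5 was called higher in CFPAC-1-GR, with 5.92, 7.10 and 6.72 FPKM in CFPAC-1 and 34.2, 26.5 and 32.1 in CFPAC-1-GR (log2FC 2.07, and 0.82 after the correction). Among the called genes of this list too, those that rose had GC contents of at most 44.1% and the pair that fell, TRIM28 and SUV39H1, had 63.7% and 57.6%.

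Beside the members, 2 other groups were counted in CFPAC-1-GR. Of 117 tested ZNF genes on other chromosomes, 39 were called higher (33.3%, background 20.5%) and 6 lower (5.13%, background 11.7%). The share of the 45 tested members called higher was also 33.3%. The median log2FC of the ZNF genes on other chromosomes was 0.37, and 0.17 after the correction. Of 682 other tested genes of chromosome 19, 14 were called higher (2.05%) and 256 lower (37.5%), and their median log2FC was -0.83. The median GC content of the other genes of chromosome 19 was 55.3% over all 2692. Genes of the same chromosome thus had a median opposite to that of the members, 0.52, and after the correction the medians were -0.18 and 0.06. In the BxPC-3 pair the other genes of chromosome 19 had a median of -0.18, beside -0.03 for the members. These counts are descriptions, and the differences between the groups were not tested.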

How the data were processed

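Total RNA of 4 lines with 3 replicates each was sequenced. FPKM for 58302 genes is what the authors deposited, in 1 table, on GRCh38 with Ensembl release 91 per the study's methods. The submitters' processing notes name Trimmomatic 0.27, FastQC 0.10.1, TopHat2 2.0.8 and the builds hg19 and GRCh38, with no roles. Whether counting used strand is not given in the sources used here, so genes overlapping on opposite strands may share reads.

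The members and lists were chosen with earlier results of these data known. Genes whose mean reached 1 FPKM over the libraries of a fit were tested with limma 3.58.1 in R 4.3.3 on log2(FPKM + 1), within each pair, and over 12 libraries for the interaction, by a script tested on simulated data. The GC correction removed splines of GC content and log length, 5 df each, fitted over all tested genes. GC content is of the longest GENCODE release 29 transcript, and length is that of the joined exons of all transcripts (57980 genes matched). KRAB boxes (at least 50% identity to a core) were sought in the longest translation among the coding transcripts of a gene. Fingers (C, 2 to 4 letters, C, 12 letters, H, 3 to 5 letters, H) were sought there too. Of all members, 25 share over 20% of their windows of 100 bases with another gene, and their values are uncertain.

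Named were up to 6 called members in each direction per pair, those called in both pairs, up to 4 called interactions in each direction, the 5 with the highest mean, up to 8 present in 1 parental line only, those called after the correction and a list of known members. Others named were chosen after their values were seen. Depth was estimated from whole-fragment steps between low values (tolerance 0.1), and limits from it cover counting error only. Tables used Python 3.11.15, numpy 2.4.6, pandas 2.3.3, scipy 1.17.1, matplotlib 3.10.9 and biopython 1.88. The GC correction at a minimum of 0.1 FPKM, with and without a pseudocount of 0.1, was added after seeing the data.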

Additional observations from a re-analysis of the deposited data

Results flagged for a closer look

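For 8 members the change differed between the pairs by the interaction term of limma over the 12 libraries (CFPAC-1-GR change minus BxPC-3-GR change, log2 scale). The 4 largest positive differences were 3.41 for ZNF146, 1.83 for ZNF121, 1.79 for ZNF614 and 1.77 for ZNF888. The 4 largest negative ones were -3.62 for ZNF358, -1.58 for ZNF581, -1.40 for ZNF579 and -1.37 for ZNF865. After the GC content and length correction, ZNF146 (2.45) and ZNF358 (-2.42) were still called, and the other 6 were between -0.69 and 0.76. In BxPC-3, 1 of the 3 libraries listed ZNF358 at 0, and without it the difference was -3.04.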

How the results depend on the processing

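The replicate block changed no call and no count (15 higher and 9 lower in CFPAC-1-GR, 1 and 3 in BxPC-3-GR, 22 and 7 for the interaction). Same-numbered libraries shared no strong deviation from the means of their lines. The correlations were 0.0959, -0.0521 and 0.0584 in the BxPC-3 pair and 0.000145, -0.143 and -0.0671 in the CFPAC-1 pair. With 3 libraries per line, they cannot show whether the numbers pair the libraries. The replicate block with the GC correction gave in CFPAC-1-GR 2 higher, 0 lower and a median of 0.0613, and for the interaction 3 and 2 and a median of 0.00632.

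The GC correction gave those same values, in CFPAC-1-GR with 18 higher and 5 lower at an unadjusted p below 0.05 by limma. Fitted without ZNF genes it gave 2, 0 and 0.0648, and 3, 2 and 0.00934. With GC content over joined exons it gave 2, 0 and 0.15, and 4, 2 and 0.0486, and a median of -0.0432 in BxPC-3-GR. Of 33 results for named members, 24 lost their call under the correction and 8 kept it, and the interaction of ZNF224 turned from above 0 to -0.0172, and to -0.0169 without ZNF genes in the fit and -0.0172 with the block. With a minimum of 0.1 FPKM as well, it gave 2 (background 4.03%), 1 (3.34%) and -0.14 in CFPAC-1-GR. For the interaction it gave 4 above 0 (7.23%) and a median of -0.17, and in BxPC-3-GR a median of -0.0036. With a pseudocount of 0.1 too, 4 were lower in CFPAC-1-GR (background 8.57%) and 20 for the interaction (13.7%), with medians of 0.24 and 0.25. In BxPC-3-GR 10 were then lower (6.13%) and 10 higher (7.17%). The causes of these differences were not tested.

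Without the correction, a pseudocount of 0.1 gave 2 higher and 6 lower in BxPC-3-GR, a median of 0.83 in CFPAC-1-GR, and 43 above 0 and a median of 1.28 for the interaction. With a minimum of 0.1 FPKM as well, 197 members were tested in BxPC-3-GR, and 8 were called higher (background 7.50%) and 10 lower (6.03%). In CFPAC-1-GR 113 of 185 were then called higher (28.3%), with a median of 1.29 beside 0.38 over all genes. For the interaction 113 of 203 were called above 0 (28.9%) and 14 below (14.2%), with a median of 1.27 beside 0.40. That minimum alone gave medians of 0.44 in CFPAC-1-GR and 0.39 for the interaction, and no filter gave 0.30, 0.27 and, in BxPC-3-GR, -0.00653. Median-of-ratios scaling gave 9 higher (background 14.5%), 12 lower (18.96%) and a median of 0.34 in CFPAC-1-GR. For the interaction it gave 14 above 0 (16.7%), 11 below (21.2%) and a median of 0.38. In BxPC-3-GR it gave a median of 0.00756, where upper-quartile scaling gave 0.00977. A test against an absolute log2FC of 1 gave 0 and 0 in BxPC-3-GR and 4 and 2 in CFPAC-1-GR. Protein-coding genes alone gave a median of 0.46 in CFPAC-1-GR. Counts in this section that carry no background were set beside no share of all genes here.

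Leaving out 1 library at a time gave 10 to 18 higher, 8 to 10 lower and a median between -0.41 and 0.79 in CFPAC-1-GR. In BxPC-3-GR it gave 1 higher, 2 to 4 lower and a median between -0.0736 and -0.0101. For the interaction it gave 18 to 24, 7 to 9 and 0.48 to 0.61. In the shallowest CFPAC-1 library, 0.1 FPKM is about 6.26 fragments, and the median member had 0.111 to 0.114 FPKM in the CFPAC-1 libraries.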

Other observations

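Of the 261 members, 14 were at 0.1 FPKM or more in every BxPC-3 library and below 0.1 FPKM in all 6 libraries of the CFPAC-1 pair. In the stretch from ZNF101 to ZNF254 lie 11 of these 14. The share of all genes with this pattern is not given here. Of the 5 KRAB members whose CFPAC-1-GR libraries all lay below those of CFPAC-1, ZNF506 and ZNF486 are in that stretch, and the others were ZNF878, ZNF132 and ZNF324B. These members were named after their values were seen.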
